A study of Mus musculus with 12 samples.

Results

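The 38 genes described here encode the core machinery of apoptosis, necroptosis and pyroptosis. They were taken by gene symbol from the count table of mouse heart RNA, and all 38 were among its 53465 genes. All 38 also had enough reads to enter the test, which covered 16101 genes. They fall into 8 sets by role, from the BCL-2 survival proteins to the inflammasome.

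In the mitochondrial route to apoptosis, BH3-only proteins antagonise the BCL-2 survival proteins and allow BAX and BAK to open the outer mitochondrial membrane, after which cytochrome c and other proteins leave the mitochondrion and the apoptosome activates caspase-9. Death receptors act through adaptors such as FADD to activate caspase-8. When caspase-8 is inhibited, RIPK1 and RIPK3 can instead activate MLKL, which ruptures the plasma membrane in necroptosis, whereas inflammasome caspases cleave gasdermin D in pyroptosis. Cardiomyocytes divide rarely, so that losing them by any of these routes is largely irreversible, and doxorubicin, an anthracycline that damages DNA and mitochondria, is a well-known cause of such loss. Much of this machinery is controlled at the level of protein cleavage and localisation, which RNA does not measure.

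The 12 libraries came from the hearts of male mice on a C57BL/6J background, 3 mice in each of 4 groups, which were 8 weeks old at the first injection and were killed 4 weeks after the last. Littermates carrying floxed Adam17 alleles without Cre (A17fl/fl) were compared with mice in which Cre under the α-MHC promoter deleted Adam17 in cardiomyocytes alone (A17α-MHCKO), so that the other cells of the knockout heart kept the gene and all 4 groups carried the floxed alleles. Only the knockouts carried Cre, and no group had Cre without the floxed alleles. Loss of Adam17 and presence of Cre therefore cannot be told apart. Mice of either genotype received doxorubicin (DOX) intraperitoneally at 5 mg/kg on days 0, 7, 14 and 21, a cumulative 20 mg/kg, or normal saline (NS). The design asks how the drug changed expression in each genotype, how the genotypes differed after each treatment, and whether the drug acted differently on them.

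Total counts ran from 15950717 to 21725076 per library, with a median of 16413855. The targeted gene followed the labels: Adam17 was at 43.6 to 70.9 CPM, that is TMM-normalised counts scaled to depth, in A17fl/fl + NS, 48.1 to 53.2 in A17fl/fl + DOX, 34.2 to 35.3 in A17α-MHCKO + NS and 27.9 to 36.8 in A17α-MHCKO + DOX, so that every knockout was below every A17fl/fl mouse. Cardiomyocyte markers were present in all libraries, with none of the 8 at 0. The authors describe the samples as left ventricular, but atrial markers (5 genes) varied widely between libraries. Their sum ran from 332 to 7000 CPM in A17fl/fl + NS and from 1679 to 4755 in A17fl/fl + DOX. It ran from 3875 to 8072 CPM in A17α-MHCKO + NS and from 1805 to 3997 in A17α-MHCKO + DOX. One library stood apart. A17fl/fl + NS replicate 1 lay at -120 on the first principal component, where the other 11 libraries lay between -12.9 and 28.4. Its summed neutrophil markers (6 genes) came to 2218 CPM against 5.21 to 65.5 in the other 11 libraries, macrophage markers (8 genes) to 1498 against 441 to 586, fibroblast markers (7 genes) to 8553 against 1277 to 2809, and cardiomyocyte markers to 16176 against 26661 to 43512. In whole tissue, fewer cells of a type and less RNA per cell cannot be told apart. Fold changes that this library enters are in most cases also given without it, and “without replicate 1” means without this mouse. The part that these markers play in a result was not tested.

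The 5 stretches of sequence printed here lie directly before start sites of Casp2, Fadd, Bbc3 and Bmf, 4 members in which groups did not overlap and to which the text returns. Casp2 and Fadd were the caspase and the adaptor that were higher in every A17fl/fl + DOX mouse than in every A17fl/fl + NS mouse, and Bbc3 and Bmf were the BH3-only genes that were lower in every A17α-MHCKO + DOX mouse than in every A17α-MHCKO + NS mouse. The sequences are from RefSeq on GRCm38.p6, 250 bases upstream of the start site, on the strand of the gene, and capitals mark the letters of motifs found on either strand: the GC box (GGGCGG), the CCAAT box (CCAAT) and a forkhead core (GTAAACA). The window of Casp2 is chr6:42264735-42264984 on the plus strand, that of Fadd chr7:144582442-144582691 on the minus strand, those of the first and second start sites of Bbc3 chr7:16309333-16309582 and chr7:16310011-16310260 on the plus strand, and that of the first start site of Bmf chr2:118549687-118549936 on the minus strand.
Casp2: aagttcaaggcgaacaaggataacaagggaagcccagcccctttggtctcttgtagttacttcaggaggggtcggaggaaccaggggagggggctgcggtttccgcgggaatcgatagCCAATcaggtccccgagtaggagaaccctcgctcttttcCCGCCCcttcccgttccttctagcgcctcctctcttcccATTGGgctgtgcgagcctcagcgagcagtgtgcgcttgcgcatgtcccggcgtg
Fadd: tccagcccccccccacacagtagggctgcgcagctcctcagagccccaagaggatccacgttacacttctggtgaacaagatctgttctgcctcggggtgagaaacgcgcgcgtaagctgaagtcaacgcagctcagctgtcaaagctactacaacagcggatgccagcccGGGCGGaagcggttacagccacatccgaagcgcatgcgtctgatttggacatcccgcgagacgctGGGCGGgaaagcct
Bbc3, start site 1: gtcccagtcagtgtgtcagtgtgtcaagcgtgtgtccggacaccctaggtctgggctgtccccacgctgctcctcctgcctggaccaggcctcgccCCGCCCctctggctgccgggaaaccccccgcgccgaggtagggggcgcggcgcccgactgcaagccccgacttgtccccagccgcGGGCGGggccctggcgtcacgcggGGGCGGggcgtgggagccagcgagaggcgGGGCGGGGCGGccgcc
Bbc3, start site 2: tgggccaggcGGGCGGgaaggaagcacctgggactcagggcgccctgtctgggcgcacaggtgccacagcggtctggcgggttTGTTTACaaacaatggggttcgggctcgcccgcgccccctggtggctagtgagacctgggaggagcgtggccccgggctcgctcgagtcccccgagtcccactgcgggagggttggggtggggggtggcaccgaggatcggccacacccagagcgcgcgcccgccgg
Bmf, start site 1: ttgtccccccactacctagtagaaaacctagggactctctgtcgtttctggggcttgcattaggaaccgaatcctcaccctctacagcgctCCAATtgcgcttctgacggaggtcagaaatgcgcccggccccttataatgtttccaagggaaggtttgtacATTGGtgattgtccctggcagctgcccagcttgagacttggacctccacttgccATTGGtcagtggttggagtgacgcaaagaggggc

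These 5 windows were unlike each other. Casp2 held 1 GC box and 2 CCAAT boxes, Fadd 2 GC boxes, and the first Bbc3 window 5 GC boxes, of which the last 2 share 1 base; overlapping matches of this motif were counted separately. The second Bbc3 window held the forkhead core on its minus strand and 1 GC box, whereas the Bmf window held 3 CCAAT boxes and no GC box. Bbc3 and Bmf have 3 start sites each: the third Bbc3 window, not printed, held 7 GC boxes, 1 CCAAT box and 1 E-box, and the other 2 Bmf windows held 1 CCAAT box and none of these motifs. Windows were found for 33 of the 38 members, 46 in all. The GC box was in 25 of these 46 windows, against 32.7% of the 32851 windows of all genes, the CCAAT box in 14 against 33.8%, the forkhead core in 4 against 3.17%, and an E-box (CACGTG) in 5 against 6.02%. A match of letters is a description of the window and not a site of binding.

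On the FPKM scale (fragments per length of gene and depth of library), which allows the levels of genes to be compared, the members spanned more than 2 orders of magnitude. The highest medians over the 12 libraries were those of Endog, a mitochondrial nuclease, at 64.7 FPKM, of Mcl1, a short-lived survival protein, at 60.8 and of Cycs, which encodes somatic cytochrome c, at 60.4. These 3 were well above the fourth, Aifm1, the flavoprotein apoptosis-inducing factor, at 12.5 FPKM. Bax followed at 9.24 and Parp1, the DNA-damage sensor cleaved by executioner caspases, at 7.38. The median passed 1 FPKM in 30 members. The 8 that did not were Bmf, Casp2, Apaf1, Bcl2l11, Ripk3, Bid, Nlrp3 and Pmaip1, with Nlrp3 at 0.315 and Pmaip1 at 0.255. Within sets, the inflammasome genes ran from 0.315 to 7.00 FPKM, the latter being Gsdmd, and both necroptosis genes were low, with Ripk3 at 0.630 and Mlkl at 1.61.

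**Figure D1:**
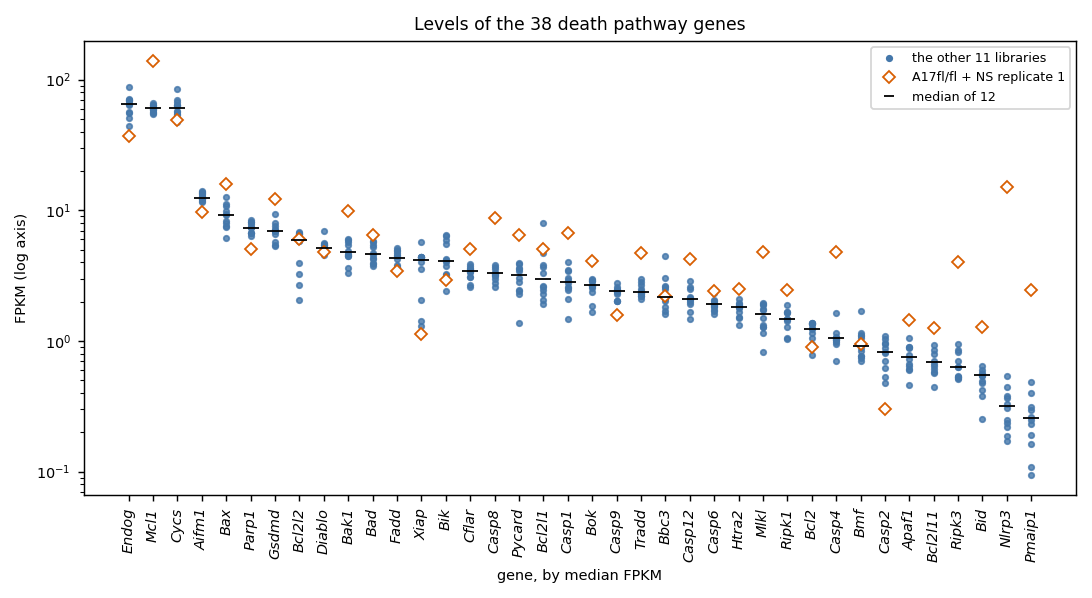
Deposited FPKM (log axis) of each of the 38 genes in the 12 libraries, ordered by median (black bar); blue points are 11 libraries and the open diamond is A17fl/fl + NS replicate 1. Endog, Mcl1 and Cycs had medians of 60.4 to 64.7, and the diamond of Nlrp3 lies far above its other points.

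No member passed an adjusted p of 0.05 in any of the 7 contrasts fitted with edgeR, nor in any with DESeq2, and the smallest adjusted p was 0.313 with edgeR and 0.0601 with DESeq2. Of all genes tested, 0.0186% passed it with edgeR in the knockout after saline, 0.00621% in the knockout after doxorubicin, 0.0248% in the knockout over both treatments and 0% in the other 4 contrasts. Counts are therefore given at an unadjusted p under 0.05, called the unadjusted limit, beside the share of all genes that met it. After doxorubicin in A17fl/fl mice, 6 of 38 members met it, 3 higher and 3 lower, where 10.7% of all genes tested did so (4.11% higher and 6.58% lower); DESeq2 gave 4. In A17α-MHCKO mice 3 members met it, 1 higher and 2 lower, with 6.42% of all genes (3.97% higher and 2.44% lower). Between genotypes after saline there were 5 members, 3 higher and 2 lower in the knockout, with 10.1% of all genes (3.61% higher and 6.53% lower). Between genotypes after doxorubicin there were 0 with either edgeR or DESeq2, where 2.70% of all genes met the limit in edgeR (1.52% higher and 1.19% lower). For the difference between genotypes in the effect of the drug, 2 members met it, both lower, with 5.99% of all genes (3.50% higher and 2.49% lower). Averaged over genotypes, doxorubicin gave 4 members higher and 2 lower, with 10.7% of all genes (5.47% higher and 5.20% lower). Averaged over treatments the knockout gave 1 higher and 1 lower, with 6.65% of all genes (2.76% higher and 3.89% lower). These shares are near the background, so that the counts do not set the members apart from other genes.

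A17fl/fl + NS replicate 1 shaped many of these values. It had the highest CPM of the 12 libraries in 21 of the 38 members, or 55.3%, where it was the highest in 26.1% of all genes tested. It had the lowest in 9 members, or 23.7%, against 24.9% of all genes. The members it topped included Nlrp3, Ripk3, Mlkl, Casp1, Casp4, Casp8, Pmaip1, Mcl1 and Gsdmd, and those in which it was lowest were Cycs, Diablo, Aifm1, Endog, Xiap, Parp1, Casp2, Casp9 and Fadd. Without it, 5 members met the limit after doxorubicin in A17fl/fl mice, all higher (10.2% of all genes, 4.63% higher), and the median log2 fold change of the members went from -0.09 to 0.18, where that of all genes went from -0.04 to -0.01. Spread was estimated from all 12 libraries together, so this mouse also enters the SE and p of groups that do not hold it. With it left out, 1881 of 16406 genes met the limit for doxorubicin in the knockouts, against 1033 of 16101. Between genotypes after doxorubicin 959 did so, against 435. Members stayed at 1 higher and 2 lower in the former and at 0 in the latter. The edgeR adjusted p of Bbc3 and Bmf in the knockouts then became 0.304 and 0.327.

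**Figure D2:**
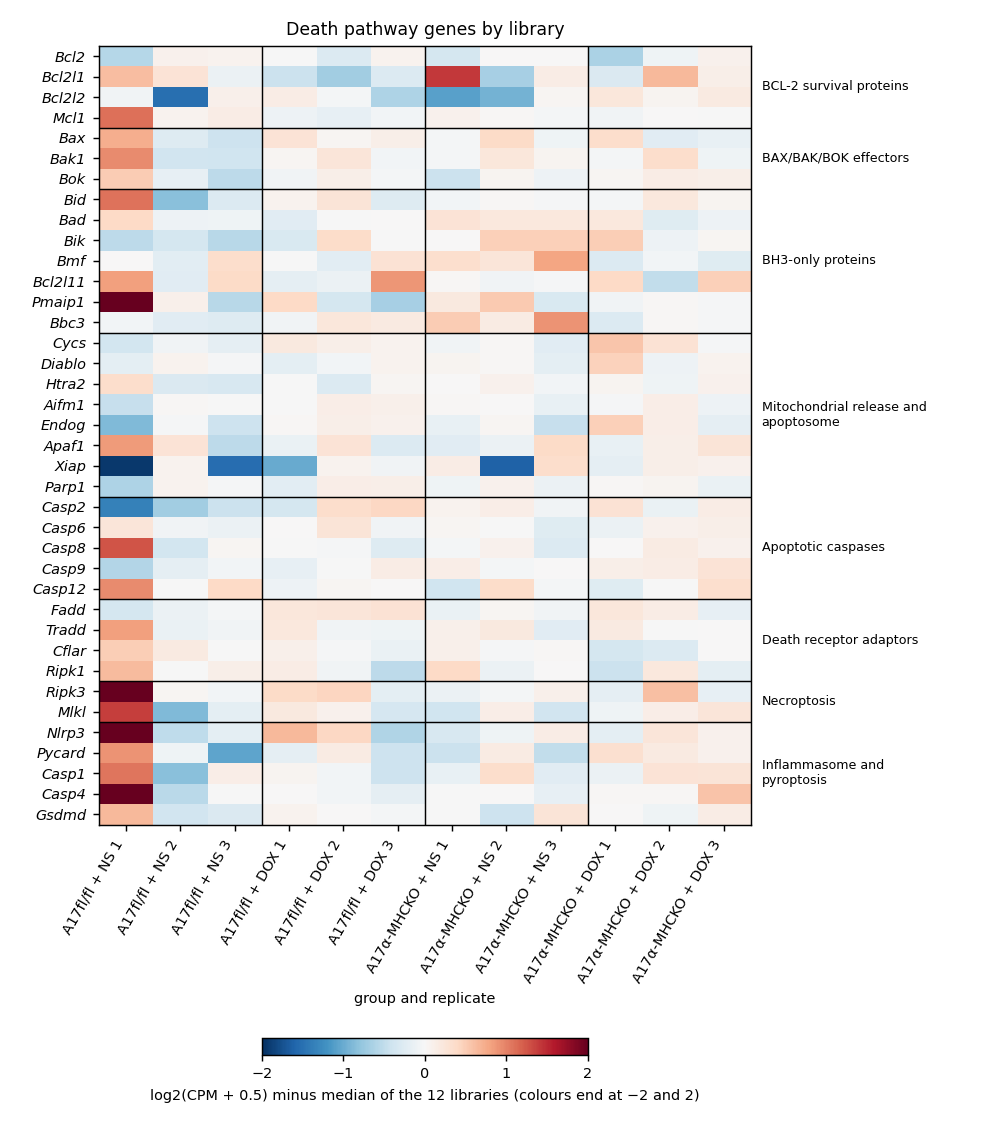
Colour gives log2(CPM + 0.5) of each gene in each library minus the median of the gene over the 12 libraries, with the colour scale ending at -2 and 2; rows are grouped by role and columns by group. The first column, A17fl/fl + NS replicate 1, is the highest of 12 in 21 genes and the lowest in 9.

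Among the BCL-2 survival proteins, Mcl1 was lower after doxorubicin in A17fl/fl mice. It was at 527, 258 and 273 CPM in A17fl/fl + NS and at 229, 218 and 236 CPM in A17fl/fl + DOX. The groups did not overlap, but the first saline mouse carried most of the distance, and the log2 fold change of -0.63 ± 0.23 (SE, adjusted p = 0.414) was -0.23 without it. In A17α-MHCKO mice Mcl1 was at 261, 249 and 239 CPM after saline and at 233, 247 and 243 CPM after doxorubicin, and these ranges overlapped. Bcl2l1, which encodes BCL-XL, was at 56.8, 45 and 34.2 CPM in A17fl/fl + NS and at 27.2, 22.8 and 30.4 CPM in A17fl/fl + DOX. All treated mice were below all saline mice, with a log2 fold change of -0.76 ± 0.44 (SE, adjusted p = 0.557, or -0.57 without replicate 1) that missed the unadjusted limit. In the knockouts it was at 99.8, 23.1 and 40.9 CPM after saline and at 30.3, 58.6 and 40.0 CPM after doxorubicin, a spread within groups that exceeded any difference between them.

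Bcl2 itself, the founding survival protein, had similar means in the 4 groups when all libraries were used. Its mean was 11.9 ± 2.93 CPM (SD, n = 3) in A17fl/fl + NS, 12.2 ± 1.53 in A17fl/fl + DOX, 11.9 ± 1.70 in A17α-MHCKO + NS and 11.2 ± 2.88 in A17α-MHCKO + DOX. Without replicate 1 the A17fl/fl + NS mean was 13.6 ± 0.12 CPM (SD, n = 2), and the knockout after saline had a log2 fold change of -0.19. The log2 fold changes after doxorubicin were 0.04 ± 0.24 (SE) in A17fl/fl mice (-0.15 without replicate 1) and -0.08 ± 0.24 in the knockouts. Bcl2l2, another survival protein, ran from 17.8 to 60.4 CPM. Its 3 A17α-MHCKO + DOX mice, at 60.4, 53.8 and 58.2 CPM, were all above the A17α-MHCKO + NS mice, at 24.0, 26.5 and 52.8 CPM (log2 fold change 0.74 ± 0.40, SE, adjusted p = 0.807), a difference that missed the unadjusted limit. Bcl2l2 shares a stretch of the genome with the readthrough gene Gm20521 on the same strand, so its reads could be divided between them.

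The effectors Bax and Bak1, which form the pores in the outer mitochondrial membrane, did not separate the groups when all libraries were used. Bax was at 38.9, 19.4 and 17.3 CPM in A17fl/fl + NS and at 28.1, 24.0 and 25.3 CPM in A17fl/fl + DOX. Bak1 was at 41.2, 15.98 and 15.9 CPM in the former and at 21.7, 24.9 and 20.4 CPM in the latter. In both genes the first saline mouse was the highest of all 12 and the other 2 saline mice were below every treated mouse. The log2 fold changes were 0.03 ± 0.29 for Bax and -0.12 ± 0.32 for Bak1 with all libraries, and 0.49 for each without that mouse, where both met the unadjusted limit. In the knockouts Bax was at 22.5, 30.6 and 21.97 CPM after saline and at 29.8, 19.8 and 20.8 CPM after doxorubicin, and Bak1 gave a log2 fold change of 0.01 ± 0.32. Bok, a BAX relative, ran from 6.58 to 14.0 CPM and had log2 fold changes of 0.00 ± 0.25 in A17fl/fl mice (0.36 without replicate 1) and 0.26 ± 0.25 in the knockouts.

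The ratio of Bax to Bcl2, often read as the balance between effector and survival protein, was computed from FPKM in each mouse as a description. It was 17.8, 5.54 and 4.99 in A17fl/fl + NS, 8.60, 8.86 and 7.29 in A17fl/fl + DOX, 8.81, 9.21 and 6.65 in A17α-MHCKO + NS and 14.4, 6.41 and 5.92 in A17α-MHCKO + DOX. The group means lay between 8.22 and 9.45, and the SD within groups reached 7.25. The ranges of the 2 A17fl/fl groups overlapped only through the first saline mouse, and those of the knockout groups overlapped as well.

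Of the 7 BH3-only genes, Bbc3 and Bmf met the unadjusted limit after doxorubicin in the knockouts, both lower, whereas Bid (0.12) and Bcl2l11 (0.22) had log2 fold changes above 0. Bbc3, which encodes PUMA, was at 6.23, 5.505 and 5.33 CPM in A17fl/fl + NS, at 6.16, 7.69 and 7.46 CPM in A17fl/fl + DOX, at 9.51, 7.38 and 12.5 CPM in A17α-MHCKO + NS and at 5.29, 6.63 and 6.38 CPM in A17α-MHCKO + DOX. The saline-treated knockouts were all above both the saline-treated A17fl/fl mice and the treated knockouts. The log2 fold change after doxorubicin in the knockouts was -0.68 ± 0.21 (SE, adjusted p = 0.698), that of the knockout after saline was 0.78 ± 0.21 (adjusted p = 0.313, or 0.85 without replicate 1), and the effect of the drug differed between genotypes by -1.0 ± 0.30 (adjusted p = 0.828, or -1.07 without replicate 1). The A17α-MHCKO + NS mice stand in all 3 of these contrasts, so these are not separate findings.

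Bmf, a BH3-only protein tied to the cytoskeleton, followed the same order among the knockouts. It was at 11.5, 10.9 and 15.98 CPM in A17α-MHCKO + NS and at 7.43, 8.77 and 7.59 CPM in A17α-MHCKO + DOX. All treated knockouts were below all saline-treated ones, with a log2 fold change of -0.69 ± 0.22 (SE, adjusted p = 0.705). In A17fl/fl mice it was at 9.18, 7.78 and 11.8 CPM after saline and at 8.99, 7.82 and 11.2 CPM after doxorubicin, which are nearly the same ranges, and the effect in the knockouts minus that in A17fl/fl mice, -0.65 ± 0.31 (adjusted p = 0.832, or -0.62 without replicate 1), missed the unadjusted limit. In the 6 treated and 6 saline mice together Bmf had a log2 fold change of -0.36 ± 0.15 (adjusted p = 0.448, or -0.38 without replicate 1).

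Bik, which acts at the endoplasmic reticulum, was lowest in the saline-treated A17fl/fl mice. It was at 2.60, 2.99 and 2.51 CPM in A17fl/fl + NS, at 3.08, 5.23 and 3.92 CPM in A17fl/fl + DOX, at 3.95, 5.66 and 5.70 CPM in A17α-MHCKO + NS and at 5.73, 3.64 and 4.07 CPM in A17α-MHCKO + DOX. All 3 of its A17fl/fl + NS values were below all 9 others, but the nearest were almost tied. These were 2.99 CPM from 50 reads in A17fl/fl + NS replicate 2 and 3.08 CPM from 49 reads in A17fl/fl + DOX replicate 1. The log2 fold change of the knockout after saline was 0.92 ± 0.27 (SE, adjusted p = 0.317, or 0.89 without replicate 1) and that of doxorubicin in A17fl/fl mice 0.59 ± 0.27 (adjusted p = 0.466), and both rest on these 3 saline mice. The second was 0.56 without replicate 1, where it missed the unadjusted limit, and it met that limit in 5 of 18 alternative fits. Averaged over treatments, the knockout had 0.53 ± 0.19 (adjusted p = 0.736, or 0.51 without replicate 1).

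Pmaip1, which encodes NOXA, gave the largest fold among the BH3-only genes and the least secure. It was at 6.18, 0.778 and 0.313 CPM in A17fl/fl + NS and at 1.07, 0.431 and 0.249 CPM in A17fl/fl + DOX, with as few as 4 reads in a library. Its log2 fold change of -2.05 ± 0.92 (SE, adjusted p = 0.461) was 0.08 without the first saline mouse. Bid, cleaved by caspase-8 to engage the mitochondrial route, was at 6.58, 1.38 and 2.26 CPM after saline and at 3.02, 3.51 and 2.30 CPM after doxorubicin in A17fl/fl mice, and it turned in the opposite direction, from -0.21 ± 0.45 to 0.69 without the same mouse. Bad and Bcl2l11, the latter encoding BIM, had overlapping groups in every comparison, with CPM from 14.0 to 21.9 and from 7.15 to 19.3. The strand setting used in counting is not given, and Bid, Bad and Bak1 each overlap a gene on the opposite strand, whose reads then cannot be told apart from theirs.

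Among the proteins released from the mitochondrion and their partners, Cycs and Endog met the unadjusted limit with doxorubicin averaged over genotypes, both higher. Cycs was at 173, 212 and 196 CPM in A17fl/fl + NS, at 254, 239.9 and 233 CPM in A17fl/fl + DOX, at 211, 226 and 189.8 CPM in A17α-MHCKO + NS and at 328, 271 and 219 CPM in A17α-MHCKO + DOX. The A17fl/fl groups did not overlap, and in the knockouts 1 treated mouse fell within the saline range. Its log2 fold change was 0.32 ± 0.16 (SE) in A17fl/fl mice, where it missed the unadjusted limit (0.25 without replicate 1), 0.38 ± 0.16 in the knockouts and 0.35 ± 0.11 averaged over them (adjusted p = 0.354), or 0.32 on average without replicate 1. Endog was at 37.1, 67.9 and 51.7 CPM in A17fl/fl + NS, at 69.9, 74.7 and 73.4 CPM in A17fl/fl + DOX, at 62.1, 70.6 and 50.1 CPM in A17α-MHCKO + NS and at 96.5, 75.8 and 61.1 CPM in A17α-MHCKO + DOX. Its A17fl/fl groups did not overlap and its knockout groups did. It had 0.41 ± 0.16 averaged over genotypes (adjusted p = 0.413, or 0.32 without replicate 1). The effects in A17fl/fl mice, 0.48 ± 0.23 (0.28 without replicate 1), and in the knockouts, 0.35 ± 0.23, both missed the unadjusted limit and lay within their errors of each other.

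Summed cardiomyocyte markers ran in the same direction as these mitochondrial genes. They came to 16176 to 38522 CPM in A17fl/fl + NS and 40336 to 43512 in A17fl/fl + DOX, and to 26661 to 33293 CPM in A17α-MHCKO + NS and 36990 to 38592 in A17α-MHCKO + DOX, so that treated mice were above saline mice in each genotype. Single markers differed in this. Tnnt2 was higher in every treated mouse of each genotype, but Myh6 overlapped in each. Myh6 was at 4535 to 16338 CPM in A17fl/fl + NS and 15398 to 17870 in A17fl/fl + DOX. It was at 12006 to 15259 CPM in A17α-MHCKO + NS and 10921 to 14821 in A17α-MHCKO + DOX. The part of cardiomyocyte markers in the values of Cycs and Endog was not tested.

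None of the other 6 genes of this set met the unadjusted limit in any contrast with all libraries. Aifm1 had log2 fold changes of 0.22 ± 0.14 and 0.05 ± 0.14 after doxorubicin in A17fl/fl mice and the knockouts, Parp1 0.19 ± 0.18 and 0.02 ± 0.18, Diablo, which encodes an antagonist of the inhibitors of apoptosis, -0.01 ± 0.16 and 0.20 ± 0.16, and Htra2, a mitochondrial protease with a similar role, -0.02 ± 0.19 and 0.00 ± 0.19. Without replicate 1 the values in A17fl/fl mice were 0.07 for Aifm1, -0.0035 for Parp1, -0.08 for Diablo and 0.24 for Htra2. Parp1 was at 35.5, 57.7 and 53.9 CPM in A17fl/fl + NS, 47.3, 60.3 and 59.9 CPM in A17fl/fl + DOX, 51.9, 58.4 and 50.7 CPM in A17α-MHCKO + NS and 56.0, 57.0 and 50.1 CPM in A17α-MHCKO + DOX, and the ranges of the 4 groups overlapped. Endog overlaps Spout1, and Diablo overlaps AC157931.1, on the opposite strand. Htra2 overlaps Loxl3 and Aup1 on the opposite strand. Loxl3 had 1051 reads in A17fl/fl + NS replicate 1 against 114 to 330 in the other libraries, and Htra2 was itself highest there at 16.7 CPM against 10.3 to 14.0. Apaf1, the apoptosome scaffold, ran from 7.71 to 20.8 CPM and had a log2 fold change of -0.34 ± 0.32 after doxorubicin in A17fl/fl mice (0.05 without replicate 1). Xiap, the inhibitor of caspases, ran from 13.0 to 65.2 CPM and had larger but loosely measured differences, 0.61 ± 0.56 after doxorubicin in A17fl/fl mice (0.26 without replicate 1) and 0.71 ± 0.56 for the knockout after saline (0.37 without replicate 1). The groups of both genes overlapped in every comparison.

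**Figure D3:**
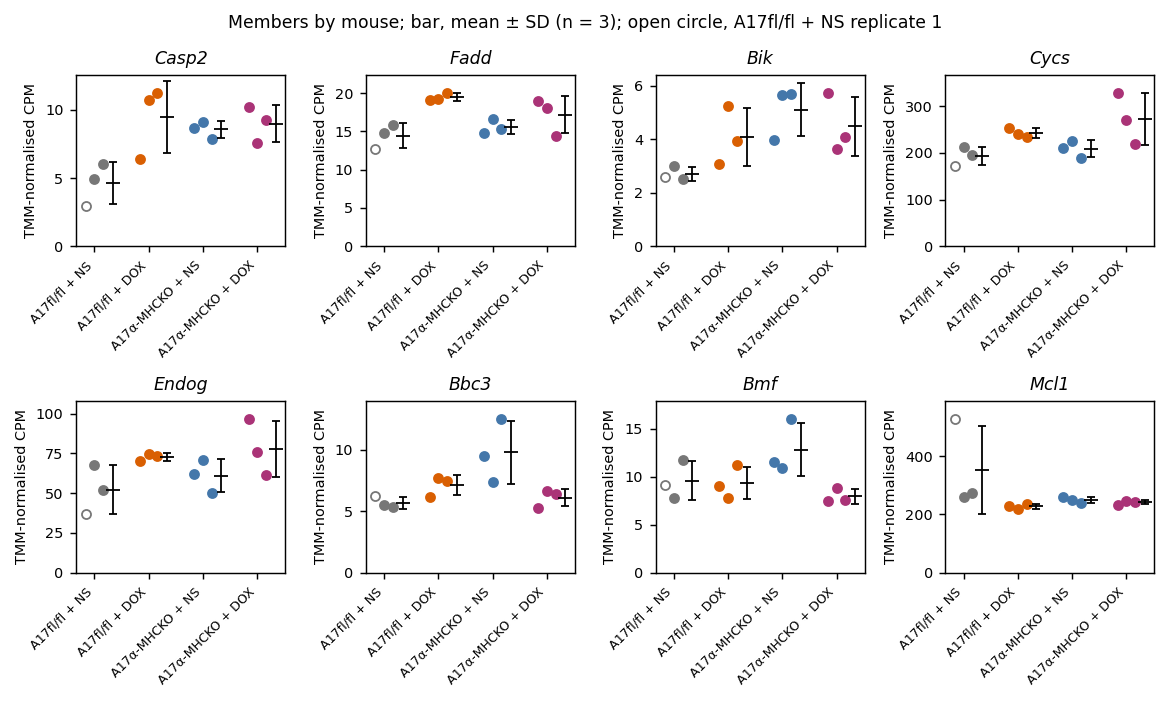
TMM-normalised CPM of 8 members in each mouse by group, with the mean and SD of 3 mice as a bar; the open circle is A17fl/fl + NS replicate 1. Casp2, Fadd, Bik, Cycs and Endog are higher in all A17fl/fl + DOX mice than in all A17fl/fl + NS mice, Bbc3 and Bmf are lower in all A17α-MHCKO + DOX than in all A17α-MHCKO + NS mice, and the Mcl1 value of 527 belongs to the open circle.

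Of the caspases, Casp2, whose product responds to DNA damage and disturbed cell division, had the largest difference that did not rest on 1 library. It was at 2.94, 4.91 and 6.01 CPM in A17fl/fl + NS, at 6.41, 10.7 and 11.2 CPM in A17fl/fl + DOX, at 8.70, 9.11 and 7.90 CPM in A17α-MHCKO + NS and at 10.2, 7.54 and 9.23 CPM in A17α-MHCKO + DOX. The 3 saline-treated A17fl/fl mice were the lowest of the 12, whereas the knockout groups overlapped. Its log2 fold change after doxorubicin was 1.03 ± 0.28 (SE, adjusted p = 0.334) in A17fl/fl mice, or 0.79 without replicate 1, and 0.07 ± 0.27 in the knockouts, a difference between genotypes of -0.97 ± 0.39 (adjusted p = 0.828). That difference was -0.72 without replicate 1, where it missed the unadjusted limit, and it met the limit in 11 of 17 alternative fits. The log2 fold change of the knockout was 0.89 ± 0.28 (adjusted p = 0.338, or 0.65 without replicate 1) after saline and -0.07 ± 0.27 after doxorubicin. The A17fl/fl + NS mice enter 3 of these values, so these too are not separate.

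Casp8, the initiator of the death receptor route, was at 30.5, 9.57 and 12.9 CPM in A17fl/fl + NS, at 12.5, 12.3 and 10.3 CPM in A17fl/fl + DOX, at 12.1, 13.3 and 10.2 CPM in A17α-MHCKO + NS and at 12.5, 14.1 and 13.2 CPM in A17α-MHCKO + DOX. Apart from the first saline mouse, 11 mice lay between 9.57 and 14.1 CPM. Its log2 fold change after doxorubicin in A17fl/fl mice was -0.60 ± 0.34, and 0.05 without that mouse. Casp9, the apoptosome caspase, was at 11.4, 15.3 and 16.7 CPM in A17fl/fl + NS and at 19.2, 16.8 and 17.4 CPM in A17α-MHCKO + NS, which did not overlap (log2 fold change 0.30 ± 0.16, adjusted p = 0.553, or 0.15 without replicate 1), although the difference missed the unadjusted limit. Casp6, an executioner, ran from 9.76 to 14.0 CPM and Casp12, of the endoplasmic reticulum, from 9.14 to 23.9 CPM, and neither met the unadjusted limit in any contrast.

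Fadd was the death receptor adaptor that had the smallest p. It was at 12.6, 14.8 and 15.9 CPM in A17fl/fl + NS, at 19.1, 19.2 and 20.0 CPM in A17fl/fl + DOX, at 14.8, 16.6 and 15.3 CPM in A17α-MHCKO + NS and at 19.0, 18.1 and 14.5 CPM in A17α-MHCKO + DOX. Treated A17fl/fl mice were all above saline A17fl/fl mice and above every knockout, and in the knockouts 1 treated mouse was below all saline ones. The distance from the knockouts was nearly a tie, with 19.05 CPM in the lowest A17fl/fl + DOX mouse and 19.01 in the highest A17α-MHCKO + DOX mouse. The log2 fold change was 0.43 ± 0.14 (SE, adjusted p = 0.388) in A17fl/fl mice, 0.34 without replicate 1, 0.14 ± 0.14 in the knockouts and 0.28 ± 0.10 on average (adjusted p = 0.384, or 0.24 without replicate 1). The difference between genotypes in the response, -0.29 ± 0.20, did not meet the unadjusted limit.

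Cflar, which encodes the caspase-8 inhibitor FLIP, was at 85.7, 69.0 and 60.6 CPM in A17fl/fl + NS, at 65.6, 60.01 and 55.4 CPM in A17fl/fl + DOX, at 65.7, 60.2 and 62.3 CPM in A17α-MHCKO + NS and at 47.6, 50.2 and 61.4 CPM in A17α-MHCKO + DOX. Groups overlapped in each genotype, and the average log2 fold change with doxorubicin was -0.25 ± 0.11 (SE, adjusted p = 0.457), or -0.17 without replicate 1. Ripk1, a kinase at the branch between survival, apoptosis and necroptosis, was at 24.8, 15.6 and 17.2 CPM, 17.6, 15.1 and 10.8 CPM, 20.9, 14.6 and 15.9 CPM, and 11.5, 18.4 and 13.7 CPM in the same order of groups. Its doxorubicin log2 fold changes were -0.40 ± 0.25 in A17fl/fl mice (-0.18 without replicate 1) and -0.24 ± 0.25 in the knockouts. Ripk1 overlaps Serpinb6a on the opposite strand, which had 1905 reads in A17fl/fl + NS replicate 1 against 1099 to 1814 in the other libraries. Tradd, the adaptor of TNF receptor 1, ran from 5.52 to 11.9 CPM with 11.9 in the first saline mouse, and its log2 fold change in A17fl/fl mice went from -0.27 ± 0.27 to 0.13 without it.

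Both necroptosis genes were dominated by that library. Ripk3 was at 19.7, 3.23 and 3.01 CPM in A17fl/fl + NS, at 4.21, 4.37 and 2.67 CPM in A17fl/fl + DOX, at 2.84, 3.02 and 3.37 CPM in A17α-MHCKO + NS and at 2.71, 5.00 and 2.73 CPM in A17α-MHCKO + DOX. Its log2 fold change for the knockout after saline, -1.49 ± 0.62 (SE, adjusted p = 0.453), was -0.02 without the first saline mouse. Mlkl, the executor of necroptosis, was at 15.5, 2.81 and 4.82 CPM in A17fl/fl + NS, at 6.48, 5.97 and 4.35 CPM in A17fl/fl + DOX, at 4.14, 6.18 and 4.18 CPM in A17α-MHCKO + NS and at 5.29, 6.17 and 6.74 CPM in A17α-MHCKO + DOX. Its doxorubicin log2 fold change in A17fl/fl mice was -0.46 ± 0.49 with all libraries and 0.55 without that one, and averaged over genotypes 0.43 without it, where it met the unadjusted limit.

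The inflammasome genes showed the same dependence, most of all Nlrp3, the sensor that is induced in activated myeloid cells. Nlrp3 was at 74.1, 0.957 and 1.32 CPM in A17fl/fl + NS, at 2.77, 2.28 and 0.870 CPM in A17fl/fl + DOX, at 1.17, 1.47 and 1.8 CPM in A17α-MHCKO + NS and at 1.32, 1.95 and 1.70 CPM in A17α-MHCKO + DOX. With all libraries the log2 fold change after doxorubicin in A17fl/fl mice was -3.69 ± 1.3 (SE, adjusted p = 0.410), that of the knockout after saline -4.10 ± 1.32 (adjusted p = 0.343) and that of the knockout over both treatments -2.17 ± 0.91 (adjusted p = 0.736). Without the first saline mouse these were 0.79, 0.38 and 0.07, so that the sign of each turned. The neutrophil markers of this library are those given above.

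Casp1, the inflammasome caspase, was at 9.58, 2.21 and 4.76 CPM in A17fl/fl + NS, at 4.53, 4.12 and 3.11 CPM in A17fl/fl + DOX, at 3.83, 5.66 and 3.60 CPM in A17α-MHCKO + NS and at 3.97, 5.33 and 5.28 CPM in A17α-MHCKO + DOX. Gsdmd, which encodes gasdermin D, was at 20.4, 9.69 and 10.4 CPM, 13.5, 12.8 and 12.4 CPM, 12.8, 9.50 and 15.5 CPM, and 12.8, 12.1 and 14.3 CPM in the same order. Neither met the unadjusted limit in any contrast, and their doxorubicin log2 fold changes in A17fl/fl mice went from -0.49 ± 0.42 to 0.16 and from -0.07 ± 0.27 to 0.35 without the first saline mouse. Casp4, which senses intracellular lipopolysaccharide, was at 22.1 CPM in that mouse and at 3.41 to 7.95 CPM in the other 11 libraries, and Pycard, the ASC adaptor, at 25.9 CPM against 6.33 to 17.2.

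**Figure D4:**
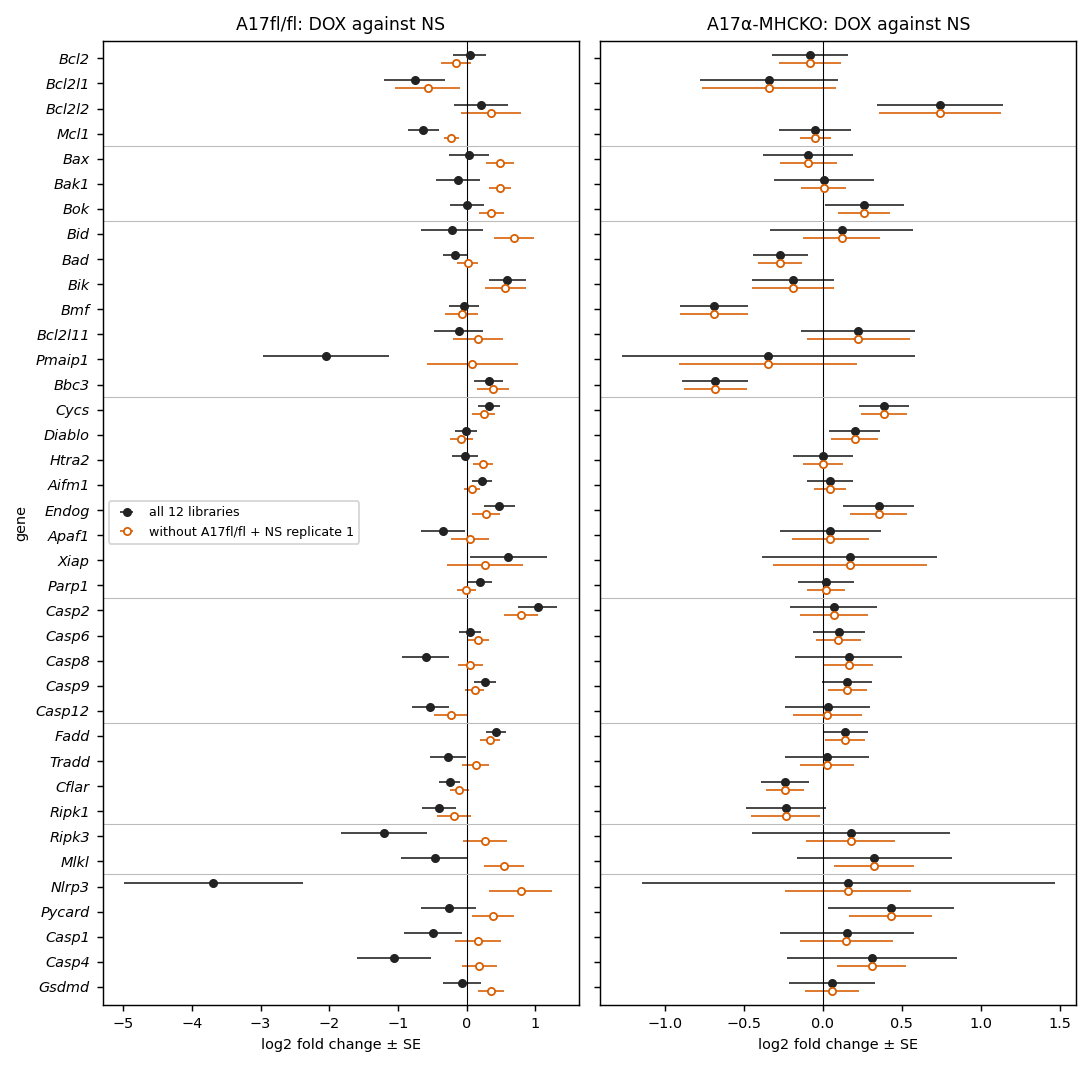
Log2 fold change and SE of each member after doxorubicin in A17fl/fl (left) and A17α-MHCKO mice (right), with all 12 libraries (filled) and without A17fl/fl + NS replicate 1 (open); the 2 panels have different horizontal scales. In the left panel Nlrp3 moves from -3.69 to 0.79 and Pmaip1 from -2.05 to 0.08, whereas Casp2 and Fadd stay above 0.

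Across the sets, the 5 inflammasome genes and the 2 necroptosis genes all had log2 fold changes below 0 after doxorubicin in A17fl/fl mice, with set medians of -0.49 and -0.83, and all 7 were above 0 without the first saline mouse, with medians of 0.35 and 0.41. The 3 effectors had a median of 0.00 with all libraries and 0.49 without it. In the knockouts, whose groups do not hold that mouse, 4 sets had every gene above 0. These were the 8 mitochondrial genes (median 0.11), the 5 caspases (0.10), the 5 inflammasome genes (0.16) and the 2 necroptosis genes (0.25). The effectors had a median of 0.01, the survival proteins -0.07, the death receptor adaptors -0.11 and the BH3-only genes -0.27, with all genes tested at 0.00. Over all 38 members, 15 were above 0 in A17fl/fl mice with all libraries and 29 without that library, where 44.5% and 48.8% of all genes tested were above 0. In the knockouts 27 members were above 0, with 50.5% of all genes. The comparisons of genotypes after saline and of treatments in A17fl/fl mice share the A17fl/fl + NS mice and are given side by side for that reason. Without replicate 1, the knockout after saline met the unadjusted limit in Bak1 (0.49), Bbc3 (0.85), Bik (0.89), Casp2 (0.65) and Htra2 (0.34), all higher, where 10.2% of all genes met it and 4.58% were higher, and doxorubicin in A17fl/fl mice met it in Bax (0.49), Bak1 (0.49), Bid (0.69), Casp2 (0.79) and Fadd (0.34).

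Groups that did not overlap were read in the same way. After doxorubicin in A17fl/fl mice, 5 members were higher in every treated mouse (Bik, Cycs, Endog, Casp2 and Fadd) and 2 lower (Bcl2l1 and Mcl1), where 13.3% of all genes did not overlap (7.15% higher and 6.11% lower). In the knockouts, Bcl2l2 and Casp4 were higher and Bmf and Bbc3 lower in every treated mouse, with 16.9% of all genes (9.16% higher and 7.79% lower). After saline, Bbc3, Bik, Casp2 and Casp9 were higher in every knockout, with 10.9% of all genes (5.52% higher and 5.34% lower). After doxorubicin Casp8 and Casp4 were higher and Fadd lower in every knockout, with 14.1% of all genes (6.96% higher and 7.13% lower). The size of these last differences was small, 0.18 ± 0.34, 0.33 ± 0.54 and -0.18 ± 0.14 on the log2 scale. The nearest mice of the groups were almost tied. In A17α-MHCKO + DOX and A17fl/fl + DOX they were at 12.53 and 12.45 CPM for Casp8, 5.29 and 5.22 for Casp4, and 19.01 and 19.05 for Fadd.

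A further 66 genes of the same pathways, from death receptors to targets of p53, were listed for context, and 59 of them had enough reads to be tested. None passed an adjusted p of 0.05 with edgeR in any contrast. After doxorubicin in A17fl/fl mice 5 were higher and 12 lower at the unadjusted limit (10.7% of all genes tested met it in either direction), and 7 and 7 without replicate 1 (10.2%). In the knockouts there were 1 and 1 (6.42%). Between genotypes after saline 5 were higher and 8 lower (10.1%), or 8 and 2 without replicate 1 (10.2%), and after doxorubicin 2 were higher (2.70%). The difference in response between genotypes gave 4 and 3 (5.99%), doxorubicin averaged over genotypes 6 and 9 (10.7%), and the knockout averaged over treatments 2 and 4 (6.65%). These counts are given as context and were not tested against other genes.

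Of these, the ones with the smallest p and no overlap after doxorubicin in A17fl/fl mice were led by Casp8ap2, a binding partner of caspase-8, which was at 10.2, 10.5 and 9.84 CPM after saline and at 7.36, 7.08 and 6.15 CPM after doxorubicin (log2 fold change -0.57 ± 0.15, SE, adjusted p = 0.334, and -0.57 without replicate 1). Fas, a death receptor, was at 40.3, 18.7 and 24.9 CPM after saline and at 15.5, 13.4 and 11.4 CPM after doxorubicin (-1.06 ± 0.30, adjusted p = 0.348, or -0.70 without replicate 1). Nek7, the kinase that binds NLRP3, was at 153, 117 and 43.7 CPM and at 29.4, 30.3 and 33.7 CPM (-1.75 ± 0.47, adjusted p = 0.334, or -1.37 without replicate 1). Of the targets of p53, Mdm2, which encodes its ubiquitin ligase, had -0.46 ± 0.13 and Trp53inp1 -0.81 ± 0.23. Apart from the p53 targets, Camk2d, the main cardiac CaMKII kinase, had 0.61 ± 0.18. Mdm2, Trp53inp1 and Camk2d each had an adjusted p of 0.358. Without replicate 1 these were -0.37, -0.88 and 0.53. In the knockouts, Perp, a p53 target at cell junctions, was at 149.9, 141 and 173 CPM after saline and at 247, 183 and 209 CPM after doxorubicin (0.46 ± 0.15, adjusted p = 0.705).

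Between genotypes after saline, Dffb, the nuclease that cuts DNA between nucleosomes in apoptosis, was at 2.14, 2.33 and 2.19 CPM in A17fl/fl + NS and at 4.07, 2.98 and 3.20 CPM in A17α-MHCKO + NS (log2 fold change 0.62 ± 0.24, SE, adjusted p = 0.409, or 0.59 without replicate 1). Hrk, a BH3-only gene, had 1.55 ± 0.60 (adjusted p = 0.416) from at most 1.92 CPM, and Ppif, which encodes cyclophilin D of the mitochondrial permeability transition, 0.44 ± 0.19 (adjusted p = 0.462). Tnfrsf10b, the TRAIL receptor, was lower at -1.20 ± 0.37 (adjusted p = 0.336, or -0.68 without replicate 1) and Zmat3, a p53 target, at -0.52 ± 0.20 (adjusted p = 0.409). Hrk, Ppif and Zmat3 were at 1.07, 0.23 and -0.30 without replicate 1, where all 3 missed the unadjusted limit. After doxorubicin Casp8ap2 was higher in every knockout, at 7.99, 8.12 and 10.02 CPM, by 0.34 ± 0.15 on the log2 scale. Of these lists, Dffa, the inhibitor and chaperone of Dffb, was higher in all 6 treated mice than in all 6 saline mice. It was at 31.8 to 36.6 CPM against 22.8 to 31.1 CPM (0.30 ± 0.09 averaged over genotypes, adjusted p = 0.350, or 0.25 without replicate 1). The share of all genes with no overlap in this comparison is not given here, so this does not set Dffa apart from other genes.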

How the data were processed

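RNA of 12 mouse hearts, described by the authors as left ventricular samples, was sequenced as stranded paired-end mRNA libraries. The authors deposited raw fragment counts per gene, made with StringTie, and FPKM, which divide them by gene length and depth. The submitters' processing notes name CASAVA 1.8, HISAT2, SAMtools 1.3.1, edgeR and the mouse build GRCm39; the annotation release and the strand setting are not given in the sources used here. No column of per-sample values was left unused (0), and no row lacked a gene name (0).

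Counts were tested with edgeR 4.0.16 in R 4.3.3 (TMM, filterByExpr, quasi-likelihood F-test), with 4 group means over 12 libraries, 7 contrasts and Benjamini-Hochberg adjustment over all 16101 genes tested (16406 without A17fl/fl + NS replicate 1). Fold changes carry their standard errors. CPM are TMM-normalised counts, and principal components used log2 CPM with a prior count of 2. The fit was tested on simulated data in which no library was set apart, so that test does not cover the influence of A17fl/fl + NS replicate 1. No libraries of the same group were copies of each other. Nothing in the labels says how mice were housed or processed, so p-values measure the spread between these mice, which may be partly technical. Total counts of 15950717 to 21725076 limit precision for genes of few reads.

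The members and lists were chosen with earlier results of these data known. Values are given for members with an unadjusted p under 0.05 in any contrast and for Bcl2, Bax, Bcl2l1, Casp8, Ripk1, Ripk3, Mlkl, Gsdmd, Nlrp3, Casp1 and Parp1, and of the other death genes for at most 6 per contrast with that p and no overlap, except 1 that is not reported here; the remaining members are given by ranges. Members whose groups did not overlap were also named. The alternatives were DESeq2 1.42.0, RLE normalisation, no filter, 10 or more counts in every library, a replicate block, the 2 groups alone, a ratio of CPM, and leaving out each library. RefSeq promoter windows and their printed coordinates are on GRCm38.p6, whereas the counts are on GRCm39, so these positions do not carry over to the counts. No other coordinates are given. Overlapping genes were read from GENCODE on GRCm38 for genes with a median of 10 or more reads.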

Additional observations from a re-analysis of the deposited data

How the results depend on the processing

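Leaving out 1 library moved the counts most, and the share of all genes at the same limit is given in brackets after each count. The number of members at the unadjusted limit after doxorubicin in A17fl/fl mice, 6 with all libraries (10.7%), ranged from 3 to 12, with 12 without A17fl/fl + NS replicate 2 (20.8%), 10 without A17fl/fl + NS replicate 3 (15.3%), 3 without A17fl/fl + DOX replicate 2 (6.33%) or 3 (6.37%), and 3 when the 2 groups were fitted alone (5.82%). Without A17fl/fl + NS replicate 1 it was 5 (10.2%), of which 2 were among the 6. For the knockout after saline (5 members, 10.1%) the range was 4 to 11, with 11 without A17fl/fl + NS replicate 2 (20.1%) or 3 (14.9%). For the knockout after doxorubicin (0 members, 2.70%) it was 0 to 1, with 1 without A17α-MHCKO + NS replicate 1 (2.39%) and 1 with the 2 groups alone (7.19%), Bcl2l1 each time. For the difference in response (2 members, 5.99%) it was 1 to 8, with 8 without A17fl/fl + NS replicate 2 (14.3%) or 3 (9.69%) and 1 without A17fl/fl + DOX replicate 3 (4.04%) or A17α-MHCKO + DOX replicate 2 (5.33%). For the knockout over both treatments (2 members, 6.65%) it was 1 to 6, with 6 without A17fl/fl + NS replicate 3 (9.87%), 4 without A17fl/fl + NS replicate 2 (13.5%) or A17fl/fl + DOX replicate 3 (4.94%), and 1 with DESeq2 (7.40%). The cause was not tested. The counts of the other 2 contrasts stayed within 1.5 times.

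Log2 fold changes turned sign without A17fl/fl + NS replicate 1 for Nlrp3 after doxorubicin in A17fl/fl mice (-4.25 to 0.79 over the fits that leave out 1 library), Nlrp3 in the knockout after saline (-4.66 to 0.38, adjusted p = 0.0393 without A17fl/fl + NS replicate 2, the only value past the adjusted threshold), Nlrp3 in the knockout over both treatments (-2.46 to 0.066) and Pmaip1 after doxorubicin in A17fl/fl mice (-2.81 to 0.084). Of 418 recomputed values for 24 member and contrast pairs, 414 kept their direction. The pairs were chosen because they met the unadjusted limit in the main fit, and the refits reuse most of the same libraries. Agreement between fits, here and for the genes below, was therefore likely in advance and is no separate support. Casp2 after doxorubicin in A17fl/fl mice ran from 0.79 to 1.27, Fadd from 0.34 to 0.50, Bbc3 in the treated knockouts from -0.86 to -0.48 and Bmf there from -0.80 to -0.51, each at the unadjusted limit in all 18 fits.

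Replicate numbers gave no clear sign of pairing: 3 of 18 same-number pairs correlated above 0.1, with a range of -0.10 to 0.22. Pairs of different numbers were not computed, so this check cannot decide whether the samples were paired. With a replicate block, 3 members met the limit after doxorubicin in A17fl/fl mice (9.30% of all genes) and 3 in the knockouts. There were 4 for the knockout after saline, 0 after doxorubicin and 3 for the difference in response. Doxorubicin over both genotypes gave 5 and the knockout over both treatments 3. The share of all genes with the block is given for the first count alone, so the others cannot be set against the background. The 2 groups alone cannot give the averaged contrasts, and 10 or more counts in every library removed Pmaip1.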

Other observations

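Some members differed far more between mice of a group than between groups. Without A17fl/fl + NS replicate 1, the biological coefficient of variation was 41.2% for Xiap, 40.1% for Pmaip1, 36.0% for Bcl2l1 and 33.1% for Bcl2l2, against a median of 17.8% over all genes tested. Xiap was at 56.2, 16.2 and 65.2 CPM in A17α-MHCKO + NS and at 25.2, 53.7 and 48.7 CPM in A17fl/fl + DOX, and its highest value over the 11 libraries was 4.02 times its lowest. Bcl2l1 had a ratio of 4.38 and Bcl2l2 of 3.40. Mcl1, at 10.996%, and Aifm1, at 11.1%, were among the least variable genes, at percentiles 2.54 and 2.92 of those tested, with ratios of 1.25 and 1.23.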
